A study of Arabidopsis thaliana with 4 samples.

Results

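UDP-glycosyltransferases (UGT), glutathione transferases (GST) and cytochrome P450 enzymes (CYP) are 3 large enzyme families of plant secondary metabolism, hormone turnover and detoxification. A P450 typically oxidises a small molecule, a GST joins it to glutathione, and a UGT joins it to a sugar, commonly glucose, after which transporters can move the product into the vacuole. In Arabidopsis the families also act on hormones, among them brassinosteroids, auxin, cytokinin, abscisic acid and salicylic acid, and many of their genes lie side by side in tandem copies. The members described here are the probe sets with 1 annotated gene whose symbol begins with UGT, GST or CYP and a family number or letter, outside the chromosome 4 loci AT4G10300 to AT4G20500. Of 22746 probe sets other than controls, 89 had such letters. Of these, 3 were annotated with several genes, 4 lay in the chromosome 4 stretch, and CYP59 and CYP71 are cyclophilins, protein-folding enzymes that share the letters without being P450s, which left 80 members.

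The samples were whole Arabidopsis thaliana seedlings of 14 days, grown upright on agar medium after 2 days in the cold, in long days (16 h light, 8 h dark) at 24 °C. There were 4 single-colour ATH1 arrays, 1 per RNA sample, all in the Col-0 background. Of these, 1 held the Columbia-0 wild type, 1 a line labelled as an enhancer trap of CESTA (CES), and 2 a T-DNA line labelled as a CESTA knockout. CES is a transcription factor of the bHLH class that acts in brassinosteroid responses. Its signal was 4124 in the enhancer-trap array, 0.533 in wild type, and 7.29 and 5.35 in the knockout arrays. The enhancer-trap line is also tagged as a gene knockout in the labels, which its CES signal goes against, and in the knockout line the signal checks nothing, because wild type was already within background.

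Values are the authors' MAS5 signals, 1 per probe set on a linear scale. A signal of 10.6 was taken as background, the brightest reading among 27 control probe sets for Bacillus genes. The median signal of an array lay between 38.5 and 39.6. For GAPDH the ratio of 3' to 5' signal, which rises as RNA degrades, was 1.38 in the enhancer-trap array and 1.70 to 2.01 in the others. For actin it was lowest in knockout replicate 2, at 13.5, with 19.7 in the enhancer-trap array, 24.2 in wild type and 25.5 in knockout replicate 1, so the controls order the arrays differently. The part of RNA quality in the results was not tested. A listed gene is called measured here only if a probe set was annotated with that gene alone. For other listed genes the array may still hold signal. Of the root markers, 2 of 4 were measured, with summed signals of 4225 in the enhancer-trap array and 3368 to 3681 in the others. Of the green shoot markers, 2 of 7 were measured, with 9871 in the enhancer-trap array and 11166 to 11646 in the others. Of these 4 markers none was within background, and the root hair gene EXPA7 rose by 1.31 in the enhancer trap against wild type (adjusted p = 0.00191, limma). The part of tissue make-up in the results was not tested. In whole seedlings more of a tissue and more RNA per cell cannot be told apart.

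Most of the members named on this array are UGTs. The annotation gave 43 UGT members, against 58 UGT symbols in the gene table, but only 13 GST members against 47 and 24 P450 members against 237. The P450 members are nearly a single subfamily, with 19 of 24 named CYP71B. Among them 2, CYP51G2 and CYP71B27, are annotated as transcribed pseudogenes, and neither was tested. The GST members are mainly of the plant-specific tau class, with 11 GSTU genes beside GSTF4 of the phi class and GSTL3 of the lambda class. Signal lay above background on all 4 arrays for 25 of 43 UGT, 11 of 13 GST and 13 of 24 P450 members. Signal lay within background on every array for 10 UGT, 1 GST and 8 P450 members. Among the latter were UGT73C1, UGT73C2 and UGT73C7, relatives of the brassinosteroid-conjugating enzymes UGT73C5 and UGT73C6, which were not analysed here. UGT76E1, UGT76E2 and UGT76E12 were also within background on every array, whereas their relative UGT76E11 was above it on all 4, at 13.1 to 16.7.

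Differences were tested with limma on log2(signal + 1) across the 13648 probe sets whose mean log2 signal reached 4.58, equal to a signal of 22.9. Of the 80 members, 44 were tested, 23 UGT, 10 GST and 11 P450. The members nearest this limit were UGT76D1, with a mean of 4.53 and left out, and UGT72E3, with 4.63 and kept. Without the knockout arrays the mean of UGT72E3 was 4.573, just under the exact limit of 4.576. Fold changes on this scale understate the change of dim genes. "Rose" and "fell" are used only where the Benjamini-Hochberg adjusted p over all tested probe sets was under 0.05. The only replicated group is the knockout, so its 2 arrays supply the whole estimate of spread. The lone wild-type and enhancer-trap arrays are assumed to vary as they do. A gene's own spread counts for 1 degree of freedom, against 41.8 for the trend of spread with signal over all tested probe sets. Each SE and p-value therefore rests mostly on that pooled trend, not on the gene's own 2 knockout values.

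In the enhancer-trap array 3 of 44 tested members differed from wild type, all of them higher, where 4.29% of all tested probe sets differed and 2.04% were higher. They were UGT72B3 and UGT71C1 of the UGT family and GSTU25 of the GST family. The share of 6.82% rests on 3 genes, of which UGT72B3 reached the signal limit only through the enhancer-trap array. It is therefore not a result about the families. No member was lower, against 2.26% of all tested probe sets. Of the 11 tested P450 members 0 passed in limma's test, and 2 had an unadjusted p under 0.05, as had 1760 of the 13648 probe sets. A 2-fold difference or more, without a test, was seen for 2 of 44 members, against 2.93% of all tested probe sets.

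UGT72B3 belongs to the same subfamily as UGT72B1, an enzyme that conjugates chlorinated phenols and anilines and monolignols. Its signal was 21.3 in wild type, 58.7 in the enhancer-trap array, and 18.6 and 13.7 in the knockout arrays. The enhancer-trap array stands above the other 3, among which wild type is the highest. Its difference between the enhancer trap and wild type was 1.42 on the log2 scale (SE 0.415, 95% interval 0.59 to 2.26). Since the mean log2 value of the other 3 arrays was 4.22, UGT72B3 passed the signal filter only through the array in which it is high, so its call (adjusted p = 0.0349, limma) is a description and supports nothing. The other 2 calls do not have this limit. In the knockout against wild type the change was -0.39 (interval -1.12 to 0.33).

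UGT71C1 glucosylates lignans and other phenolic compounds. Its signal was 118 in wild type, 206 in the enhancer-trap array, and 155 and 123 in the knockout arrays. The enhancer-trap array was again the highest of the 4. UGT71C1 rose by 0.80 (SE 0.226, interval 0.35 to 1.26, adjusted p = 0.0263, limma) against wild type. Its next neighbour in gene order, UGT71C2, read 36.7 in wild type, 27.4 in the enhancer-trap array and 34.1 and 34.2 in the knockout arrays, a change of -0.41 that did not pass (interval -1.14 to 0.33).

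GSTU25 is a tau-class enzyme known for the conjugation of xenobiotics, including the explosive TNT. Its signal was 81.7 in wild type, 135 in the enhancer-trap array, and 211 and 228 in the knockout arrays. Wild type was the lowest, both knockout arrays were the highest, and the knockout arrays differed by 0.11 on the log2 scale. Against wild type GSTU25 rose by 0.72 in the enhancer-trap array (SE 0.218, interval 0.28 to 1.16, adjusted p = 0.0472, limma). The rises of both lines are measured against the same single wild-type array.

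**Figure D1:**
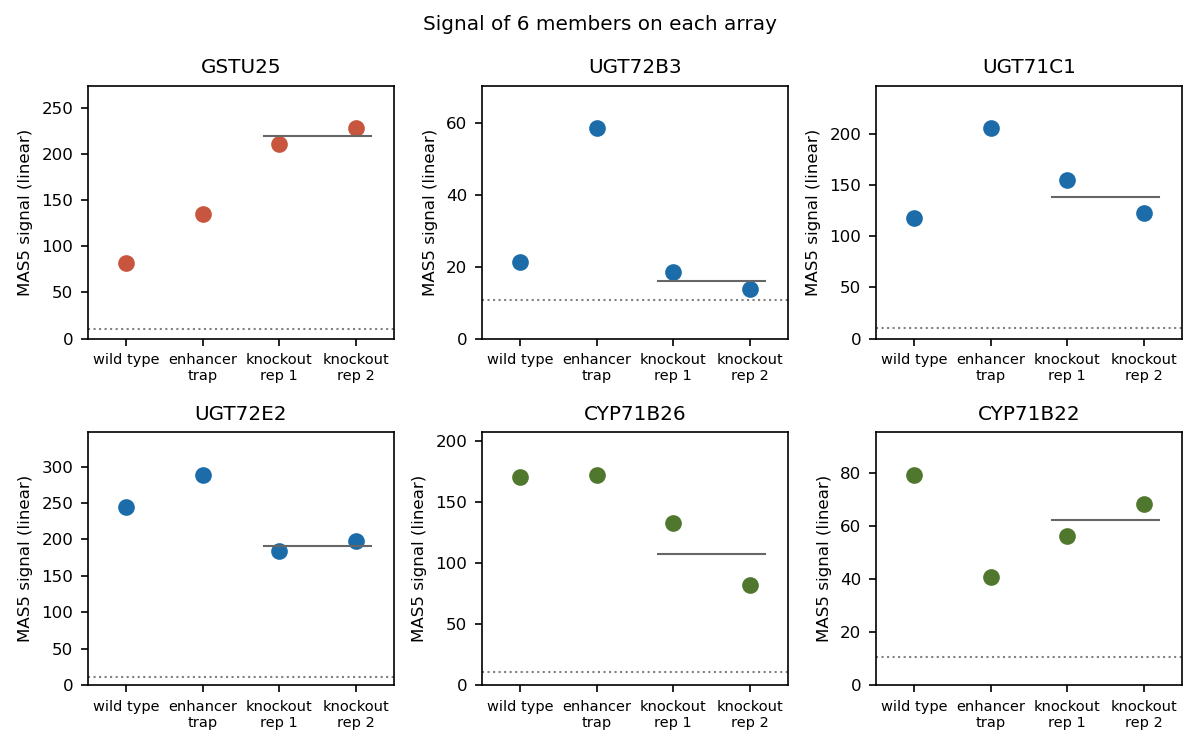
MAS5 signal (linear scale, axis from 0) of 6 members on each of the 4 arrays, with a grey bar at the mean of the 2 knockout arrays and a dotted line at the background level of 10.6. GSTU25 is lowest in wild type at 81.7, UGT72B3 and UGT71C1 are highest in the enhancer-trap array at 58.7 and 206, and CYP71B26 is lower in both knockout arrays, at 132 and 82.1.

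Below the test, most tested members were higher in the enhancer-trap array than in wild type. Of the 23 tested UGT members 18 were higher than in wild type (78.3%), against 48.6% of all tested probe sets, with a median log2 change of 0.15 against -0.01. Tested GST members were higher for 8 of 10 (median 0.12) and tested P450 members for 8 of 11 (median 0.03). Without a filter 34 of 43 UGT, 9 of 13 GST and 12 of 24 P450 members were higher, against 46.5% of all probe sets. Their medians were 0.24, 0.12 and -0.05, with members within background included. The enhancer-trap array gave the highest of the 4 signals for 21 of 44 tested members (47.7%, against 30.4% of all tested probe sets) and the lowest for 5 (11.4%, against 29.8%). These counts describe 1 array against 1, and single UGT genes within them mostly did not pass. The counts of tested members include UGT72B3, which reached the signal limit only through the enhancer-trap array. With wild type and knockout taken as 1 group of 3 arrays, 26 of 44 tested members were higher (59.1%, against 50.9% of all tested probe sets). The medians were then 0.15 for UGT, 0.12 for GST and -0.01 for P450 members.

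**Figure D2:**
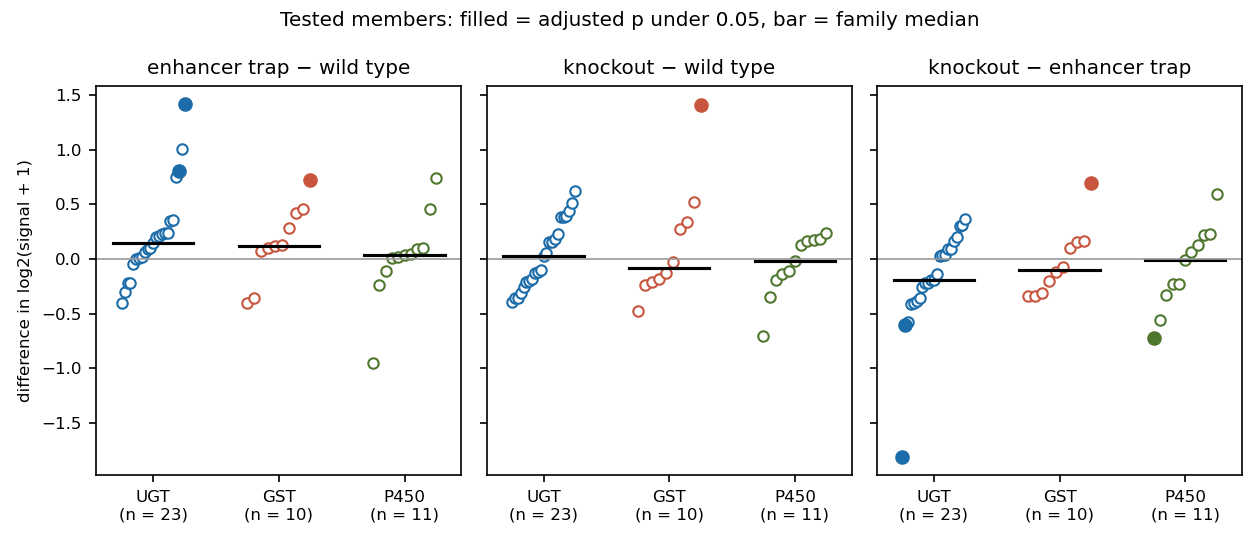
Difference in log2(signal + 1) of each tested member (circles) in the UGT (23), GST (10) and P450 (11) families for the 3 comparisons; filled circles have an adjusted p under 0.05 and black bars are family medians. In the enhancer trap against wild type 2 UGT members and GSTU25 are filled, in the knockout against wild type GSTU25 alone, at 1.41.

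Among the other named UGT members in this comparison, UGT71C3 read 19.1 for wild type, 39.5 in the enhancer-trap array, and 25.7 and 35.0 in the knockout arrays, a change of 1.01 that did not pass (adjusted p = 0.170, limma). UGT85A2 was at 0.75 (interval 0.23 to 1.27, adjusted p = 0.104, limma). The highest and lowest P450 members were both of the CYP71B subfamily. CYP71B37 was at 0.74 (adjusted p = 0.342, limma). CYP71B22 read 79.6 in wild type, 40.8 in the enhancer-trap array, and 56.5 and 68.5 in the knockout arrays, a change of -0.95 (interval -1.54 to -0.35) that missed the threshold (adjusted p = 0.0553, limma) and passed it with quantile normalization (adjusted p = 0.0466, limma). GSTU16 was the lowest GST member, at -0.41 (SE 0.295).

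In the knockout against wild type 1 of 44 tested members differed, where 0.183% of all tested probe sets did. This was GSTU25, which rose by 1.41 (SE 0.189, interval 1.03 to 1.79, n = 2 against 1, adjusted p = 1.89e-05, limma). It was among the 0.125% of probe sets that were higher, and no member was among the 0.0586% that were lower. In limma's test 0 of 23 UGT and 0 of 11 P450 members passed, and 2 and 1 of them had an unadjusted p under 0.05, as had 774 of the 13648 probe sets. GSTU25 was also the 1 member with a 2-fold difference or more, seen for 0.286% of all tested probe sets. The family medians were 0.03 for UGT, -0.08 for GST and -0.02 for P450, against -0.01 over all tested probe sets. None of these medians kept its sign under every setting. The P450 median turned to 0.01 with quantile normalization, 0.02 with median centring, 0.10 without a filter and 0.04 without knockout replicate 2. The UGT median turned to -0.12 and the GST median to 0.12 with the 60th percentile filter, and the UGT median to -0.01 without knockout replicate 1.

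GSTU26 is the next gene after GSTU25, and it did not follow GSTU25 to the same extent. It read 120 in wild type, 166 in the enhancer-trap array, and 163 and 143 in the knockout arrays, with changes of 0.46 (interval 0.02 to 0.91) in the enhancer trap and 0.34 (interval -0.05 to 0.73) in the knockout. GSTU22 read 217 in wild type, 291 in the enhancer-trap array, and 272 and 356 in the knockout arrays. Wild type was the lowest array for GSTU22, but its changes of 0.42 and 0.52 did not pass (adjusted p = 0.360 and 0.417, limma). GSTU20, which lies in a run with GSTU21, GSTU22 and GSTU23 and is known for a role in glucosinolate metabolism and jasmonate signalling, read 534 in wild type, 583 in the enhancer-trap array, and 644 and 653 in the knockout arrays (0.28 in the knockout, interval -0.03 to 0.59). GSTU16 was the lowest GST member in the knockout too, at -0.48 (interval -0.99 to 0.04).

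Of the UGT members, UGT71C3 was highest in the knockout against wild type at 0.63 (interval -0.05 to 1.30), and UGT72B3 was lowest. UGT76B1, which conjugates isoleucic acid and salicylic acid, read 89.4 in wild type, 103 in the enhancer-trap array, and 116 and 142 in the knockout arrays, a change of 0.51 (interval 0.09 to 0.94, adjusted p = 0.636, limma). Among the P450 members CYP71B5 was highest at 0.24 (interval -0.39 to 0.87). CYP71B26 was lowest at -0.70 (interval -1.14 to -0.27, adjusted p = 0.304, limma). Single arrays decided much of both values. Without knockout replicate 1 CYP71B5 was at 0.47 and CYP71B26 at -1.04, and without replicate 2 they were at 0.01 and -0.36.

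By median size, the 2 knockout arrays differed from each other more than knockout from wild type for P450 members. For UGT members the sizes were similar, and for GST members the knockout arrays differed less. The median size of the log2 difference between the 2 knockout arrays was 0.31 for tested P450 members and 0.21 for UGT members, against 0.14 for GST members and 0.17 over all tested probe sets. For comparison, the median size of the change in the knockout against wild type was 0.18 for P450 and 0.23 for UGT members. It was 0.26 for GST members and 0.14 over all tested probe sets. The knockout side of that change is a mean of 2 arrays, so the 2 measures are not strictly alike. Knockout replicate 2 was below replicate 1 for 15 of 23 tested UGT members (65.2%, against 50.8% of all tested probe sets). The widest gap among tested members was that of CYP71B26, at -0.68, and the widest in the UGT family that of UGT73B1, at -0.59. No tested member differed 2-fold or more between the knockout arrays, where 0.608% of all tested probe sets did. Untested members did, such as UGT85A3, at 1.04 in replicate 1 and 10.5 in replicate 2.

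The knockout against the enhancer trap sets the mutant lines side by side without the wild-type array. Here 4 of 44 tested members differed, 1 higher in the knockout and 3 lower, where 5.99% of all tested probe sets differed, 3.25% higher and 2.74% lower. UGT72B3 was the 1 member with a 2-fold difference or more, against 2.53% of all tested probe sets. GSTU25 was higher in the knockout by 0.69 (SE 0.189, interval 0.31 to 1.07, adjusted p = 0.0159, limma). UGT72B3 was at -1.81 (SE 0.359, adjusted p = 0.000490, limma), again a description only, since the enhancer-trap array that let it pass the filter is the high side here too. Without it 3 members were called. UGT71C1 was at -0.58 (interval -0.97 to -0.18, adjusted p = 0.0741, limma) and so did not pass between the mutant lines.

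UGT72E2 glucosylates the monolignols coniferyl and sinapyl alcohol, the building units of lignin. It read 244 in wild type, 289 in the enhancer-trap array, and 184 and 197 in the knockout arrays, so that wild type lies between the mutant lines. In the knockout it fell by 0.60 against the enhancer trap (SE 0.174, adjusted p = 0.0261, limma), while neither line passed against wild type (0.24 and -0.36). The related UGT72E1, which acts on the aldehydes of these alcohols, was at 0.10 (interval -0.30 to 0.49) and UGT72E3 at 0.03 (interval -0.69 to 0.75) between the mutant lines.

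CYP71B26 was the 1 P450 member that passed. It read 170 in wild type, 172 in the enhancer-trap array, and 132 and 82.1 in the knockout arrays. Both knockout arrays lie below the others, with a wide gap between them. It fell by 0.72 in the knockout against the enhancer trap (SE 0.215, adjusted p = 0.0321, limma). Knockout replicate 2 decided much of that value, which was -0.38 without replicate 2 and -1.06 without replicate 1. In the other direction CYP71B22 was the highest P450 member at 0.60 (adjusted p = 0.208, limma) and UGT76C1 the highest UGT member at 0.37 (interval -0.18 to 0.91). GSTL3 was the lowest GST member, at -0.34 (interval -0.66 to -0.02).

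The family medians between the mutant lines were -0.19 for UGT, -0.10 for GST and -0.01 for P450, against -0.01 over all tested probe sets. Without knockout replicate 1 they were -0.17, -0.16 and -0.26, and without replicate 2 they were -0.08, -0.06 and 0.005. Of the 23 tested UGT members 10 were higher in the knockout than in the enhancer trap (43.5%), near the 48.5% of all tested probe sets, with 5 without replicate 1 and 11 without replicate 2. The P450 median also changed sign with a pseudocount of 16, with median centring, without a filter and with the 60th percentile filter.

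**Figure D3:**
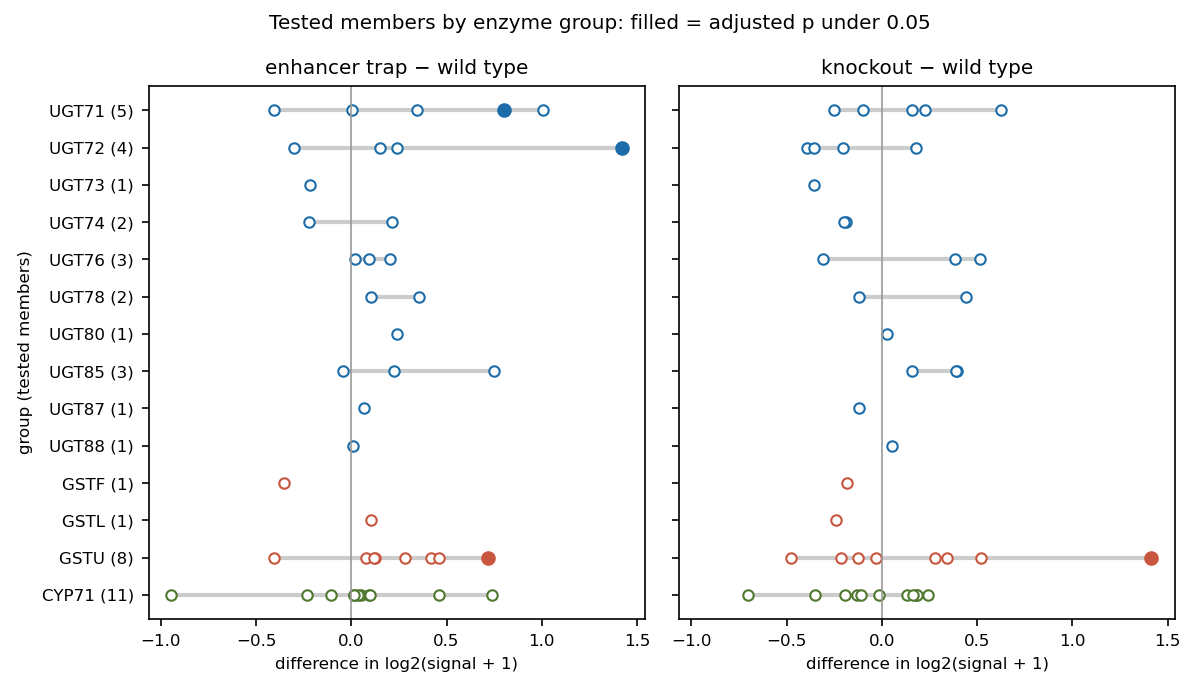
Difference in log2(signal + 1) against wild type of each tested member, by enzyme group with the number of tested members in brackets; grey lines join the lowest and highest member, and filled circles have an adjusted p under 0.05. Members of 1 group spread on both sides of 0 in UGT71, GSTU and CYP71, and GSTU25 stands apart at 1.41 in the knockout.

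In the larger groups UGT71, GSTU and CYP71, members lay on both sides of 0 against wild type. In smaller groups the signs could agree in 1 line and differ in the other. The 3 tested UGT76 members were higher in the enhancer trap, by 0.02 to 0.20, but only 2 of 3 in the knockout. The 3 tested UGT85 members were higher in the knockout, but only 2 of 3 in the enhancer trap. The 2 tested UGT74 members were lower in the knockout, but only 1 of 2 in the enhancer trap. The 4 tested UGT72 members had mixed signs in both lines. Over all tested probe sets 48.6% were higher in the enhancer trap and 47.1% in the knockout, so such small counts are a description only. The 5 tested UGT71 members are all of subfamily UGT71C and ran from -0.41 (UGT71C2) to 1.01 (UGT71C3) in the enhancer trap against wild type. UGT71C5, which conjugates abscisic acid, read 117 in wild type, 118 in the enhancer-trap array, and 104 and 92.8 in the knockout arrays, with a change of 0.004 in the enhancer trap (interval -0.48 to 0.49). The 8 tested GSTU members had a median of 0.20 in the enhancer trap, with 7 higher than wild type (48.6% of all tested probe sets). In the knockout their median was 0.12, with 4 higher (47.1% of all tested probe sets). The 11 tested P450 members, all CYP71B, ran from -0.95 to 0.74 in the enhancer trap and from -0.70 to 0.24 in the knockout. CYP71B6, which takes part in the metabolism of indole compounds, read 163 in wild type, 175 in the enhancer-trap array, and 181 and 184 in the knockout arrays, and its changes of 0.10 and 0.16 did not pass.

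Position in the genome was shared by many members. With a gap of at most 10 genes, 53 of 80 members fell into 18 runs of the same family in the gene order of TAIR10.1. Whether probe sets of such tandem copies share target sequence was not tested, so neighbours are not taken as independent. The longest run holds 11 CYP71B genes on chromosome 3 (AT3G26150 to AT3G26330), of which 7 were tested. In it CYP71B22 and CYP71B37 were the lowest and highest members in the enhancer trap, and CYP71B26 the lowest in the knockout. A run on chromosome 1 holds UGT85A7, UGT85A2, UGT85A5 and UGT85A3, of which the tested UGT85A2 and UGT85A5 were at 0.39 each in the knockout (intervals -0.06 to 0.84 and -0.24 to 1.01). The cytokinin N-glucosyltransferase genes UGT76C1 and UGT76C2, neighbours on chromosome 5, had opposite signs in the knockout, 0.39 (interval -0.16 to 0.93) and -0.31 (interval -0.81 to 0.19).

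Hormone-conjugating members gave no call in any comparison by limma. Of 23 listed hormone genes outside the brassinosteroid pathway, 6 were measured and 3 tested, UGT76B1, UGT76C1 and UGT76C2, with 0 of 3 past the test and 1 of 3 at an unadjusted p under 0.05, in the knockout against wild type. UGT71B6, which conjugates abscisic acid, was above background in the enhancer-trap array only, at 14.4, which is at least 1.36-fold above wild type (4.48) and above the knockout arrays (0.555 and 0.464). UGT74F1, a salicylic acid glucosyltransferase, was likewise above background in the enhancer-trap array alone, at 13.5, with 6.36 in wild type. Of 15 listed brassinosteroid and sterol genes, 2 were measured, both sterol glucosyltransferases. UGT80B1 read 83.1 in wild type, 98.4 in the enhancer-trap array, and 80.3 and 89.1 in the knockout arrays, and UGT80A2, annotated as SGT and so not a member, was at -0.11 and 0.07 in the lines against wild type.

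Of 14 listed phenylpropanoid and flavonoid genes 8 were measured and 6 tested. Against wild type 0 passed in either line by limma (1 of 6 at an unadjusted p under 0.05 in each). In the knockout 2 of the 6 were lower than in the enhancer trap, as were 2.74% of all tested probe sets. Besides UGT72E2 this was UGT89C1, a flavonol 7-O-rhamnosyltransferase annotated by its locus AT1G06000 and so not a member. It read 79.2 in wild type, 134 in the enhancer-trap array, and 69.0 and 59.1 in the knockout arrays, and fell by 1.06 in the knockout (adjusted p = 0.00158, limma). The flavonol glycosyltransferases UGT78D1 and UGT78D2 were at 0.35 and 0.10 in the enhancer trap (intervals -0.41 to 1.12 and -0.48 to 0.69). Of 21 glucosinolate and camalexin genes 3 were tested, UGT74B1, UGT74C1 and GSTU20, with 0 past the test and 0 at an unadjusted p under 0.05 in each comparison by limma.

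Of 22 listed genes induced by xenobiotics and oxylipins only GSTU25 and UGT72B1 had a probe set annotated with that gene alone. UGT72B1, annotated as GT72B1 and so not a member, read 252.5 in wild type, 542 in the enhancer-trap array, and 225 and 188 in the knockout arrays. Like UGT72B3 of the same subfamily it was highest in the enhancer-trap array and lowest in both knockout arrays. It rose by 1.10 against wild type (SE 0.197, adjusted p = 0.000145, limma) and was lower in the knockout than in the enhancer trap by a log2 change of -1.39 (adjusted p = 5.80e-08, limma). The list of 24 partner genes held glutathione synthesis enzymes, P450 reductases and conjugate transporters, among others. Only the glutathione reductases GR1 and GR2 had a probe set annotated with that gene alone. Their changes were 0.29 and -0.15 in the enhancer trap and 0.09 and -0.26 in the knockout, with 0 of 2 past the test and 0 of 2 at an unadjusted p under 0.05 by limma.

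The 36 members below the signal limit had no test, and their differences are bounds against the background level. UGT71B1 read 19.9 for wild type, 19.6 in the enhancer-trap array, and 7.71 and 2.03 in the knockout arrays, at least 1.87-fold lower in the knockout than in wild type. CYP718 read 4.24 for wild type, 16.8 in the enhancer-trap array, and 10.2 and 13.0 in the knockout arrays, at least 1.58-fold higher in the enhancer trap. UGT85A3 was at least 1.52-fold lower in the enhancer trap and in the knockout than in wild type, where it read 16.2. UGT85A7, at 12.6 in the enhancer-trap array, was at least 1.19-fold above wild type, and GSTU15, at 10.9 there, at least 1.02-fold.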

How the data were processed

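Per the submitters' processing notes, the authors made the deposited intensity values with MAS5 and GCOS (versions not given in the sources used here). Each array's deposited intensities have a mean of 100 once 2% are trimmed at either end, so they were already scaled by the authors. Detection calls were not used here. Signals were analysed as log2(signal + 1). Control probe sets (64) were not tested, nor were probe sets whose mean log2 value lay under the 40th percentile, leaving 13648 of 22746.

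A model with a mean per group was fitted over all 4 arrays by limma 3.58.1 in R 4.3.3 (lmFit, then eBayes with an intensity trend). Tests were 2-sided, with Benjamini-Hochberg adjustment and calls at 0.05. It has 1 residual degree of freedom. Nothing in the labels tells if the knockout arrays are separate cultures, and p-values reflect no more than how far these arrays vary, possibly for technical reasons. Their number limits the precision. A bound ("at least") divides the brighter side's mean signal by 10.6.

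Gene names are those of GEO's platform annotation. It gives 1 gene for 13513 probe sets, 13436 of them found in the TAIR10.1 gene table. Listed genes without such a probe set are the ones not counted as measured. The members and gene lists were chosen with earlier results of these data known. Named were members past the test (at most 12 per family and comparison), the highest and lowest tested member of each family in each comparison, up to 4 measured genes of each list, and up to 4 untested members per comparison whose signal differed 2-fold or more. Further members were named after their values were seen. The planned search for members patterned like GSTU25 was not reported, since 4 arrays are too few for a correlation. The lists for cutin, suberin and wax, carotenoid hydroxylation and root triterpenes had 0 measured genes.

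In a simulation over 13648 probe sets, 200 were given a log2 change of 1. The test found 61% of them in the enhancer trap against wild type and 73.5% in the knockout against wild type. In the knockout against the enhancer trap it found 75.5%. These shares hold only if the lone wild-type and enhancer-trap arrays vary as the knockout arrays do. The data cannot check that, because only the knockout is replicated, so the shares do not measure the power of the real comparisons. The alternatives were another pseudocount, normalization, centring, filter and variance model, each knockout array left out, and wild type pooled with the knockout. Plots were made in Python 3.11.15 (matplotlib 3.10.9).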

Additional observations from a re-analysis of the deposited data

Results flagged for a closer look

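The 3 probe sets annotated with several genes, at least 1 of them of these families, gave signal above background on every array and enter none of the comparisons above. The probe set shared by UGT71D1 and AT2G29710 read 45.4 for wild type, 14.3 in the enhancer-trap array, and 62.1 and 40.7 in the knockout arrays. In the enhancer trap it fell by 1.60 against wild type (adjusted p = 0.00331, limma), and it was higher in the knockout than in the enhancer trap by 1.75 (adjusted p = 0.000110, limma). The genes behind this signal cannot be told apart. The probe set shared by UGT73B2 and UGT73B3 read 121 for wild type, 159.5 in the enhancer-trap array, and 153 and 144 in the knockout arrays. The probe set shared by CYP71B19 and CYP71B20 read 139.6 for wild type, 110.0 in the enhancer-trap array, and 154 and 112 in the knockout arrays. Neither of these passed the test in any comparison by limma.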

How the results depend on the processing

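The calls changed with the setting. As reported, 3, 1 and 4 members and 586, 25 and 817 probe sets passed in the enhancer trap against wild type, the knockout against wild type and the knockout against the enhancer trap. Without the signal filter limma called 0, 0 and 0 of 80 members (8, 8 and 10 at an unadjusted p under 0.05) and 153, 0 and 231 probe sets (2252, 1211 and 2466 unadjusted). Without the intensity trend it called 1, 0 and 1 members (7, 5 and 7 unadjusted), UGT72B3 each time, and 205, 2 and 335 probe sets. With median centring it called 0, 1 and 1 members (8, 4 and 6 unadjusted), GSTU25 and UGT72B3, and 316, 2 and 511 probe sets. The split in the knockout against wild type was then 1 higher and 1 lower, against 17 and 8 as reported. With wild type and knockout as 1 group of 3, the 1 member called in the enhancer trap was UGT72B3, and GSTU25 turned to -0.22 (adjusted p = 0.877, limma), since that group includes the knockout arrays in which it is highest. A pseudocount of 16, quantile normalization and the 60th percentile filter kept these counts of calls in either direction within 1.5 times. The 60th percentile filter left UGT72B3 untested and took the probe sets lower in the knockout against wild type from 8 to 5, and quantile normalization added CYP71B22, lower in the enhancer trap. GSTU25 in the knockout against wild type passed in 4 of 6 alternatives (adjusted p 2.2e-06 to 0.431, limma), but in the enhancer trap in 2 of 7 (0.0441 to 0.877). UGT71C1 passed there in 3 of 7 (0.0235 to 0.249) and UGT72B3 in 4 of 6 (0.0124 to 0.420). Between the mutant lines GSTU25, UGT72E2 and CYP71B26 passed in 3 of 6 alternatives each and UGT72B3 in 4 of 5. UGT72B3 was not called without the signal filter. With a filter its calls remain a description that supports nothing, since it reached the signal limit only through the enhancer-trap array. The causes of the changes with the setting were not tested. Leaving out a knockout array leaves no residual degree of freedom, so no counts exist there. No paired analysis was possible because the groups share fewer than 2 replicate numbers.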
